A study of Mus musculus with 76 samples.

Results

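The H3K27me3 landscape of the wild type mouse diencephalon was compared between the embryonic stages E11.5 and E17.5 (days of gestation), using 5 of the 76 samples of the series. These were the H3K27me3 ChIP-seq replicates of wild type embryos, 2 at E11.5 against 3 at E17.5, each deposited as a list of broad peaks. The series was made to study a mouse line in which 5.5 kb of human sequence holding the enhancer hs754 replaced the mouse locus, and all samples analysed as wild type came from homozygous wild type C57BL/6J crosses. Each replicate pooled the diencephalon of several embryos of a single litter, 6 embryos for E11.5 and 3 for E17.5, so replicates were separate litters and a library does not describe a single animal. No sample was treated. Wild type RNA-seq (4 replicates per stage) and wild type H3K4me3 and H3K27ac peak lists served as further readouts. So did the H3K27me3 lists of the homozygous humanized line (2 and 3 replicates). The labels give H3K4me3 and H3K27me3 a shared input at E17.5 but separate inputs at E11.5. Whether lists of both marks came from the same E17.5 pools is not stated. Chromosome 13, which carries the replaced locus, was left out where humanized lists were compared over whole classes of regions or promoters. It was kept in the totals of the humanized lists and among genes named by rule.

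Trimethylation of histone H3 at lysine K27 is deposited by the Polycomb complex PRC2, whose catalytic subunits are Ezh2, typical of dividing cells, and Ezh1, typical of postmitotic cells. The mark covers the CpG-rich promoters of developmental genes that a cell type does not use, and a gene that carries both H3K27me3 and the promoter mark H3K4me3 in a tissue may do so in the same cells or in different cells. Between the stages compared here the diencephalon, which forms the thalamus, habenula, prethalamus and adjoining hypothalamus, passes from a proliferating neuroepithelium to a tissue of differentiating neurons and glia. In bulk tissue, a mark carried by fewer cells and less of the mark per cell cannot be told apart.

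Promoters were compared by whether a peak of a list lay within 1 kb of the annotated start of a protein-coding gene. The sequences of 5 promoters are shown because they stand for both stage-exclusive outcomes of the comparison, with CpG dinucleotides in capitals. Each runs from 250 bases before to 50 bases after the gene's annotated start, 5′ to 3′ on the gene's strand, in GRCm39. Shank3, which encodes a scaffold protein of excitatory synapses (chr15:89383576-89383875, plus strand, 41 CpG), and Kcnd2, a voltage-gated potassium channel gene (chr6:21214616-21214915, plus strand, 23 CpG), were called in both E11.5 lists and in no E17.5 list. Igf2bp3, which encodes an RNA-binding protein of embryonic tissues (chr6:49192398-49192697, minus strand, 22 CpG), was called in all 3 E17.5 lists and no E11.5 list, as were the CpG-poor starts of Rgs14, a regulator of G-protein signalling (chr13:55517008-55517307, plus strand, 3 CpG), and Cd3g, a T-cell receptor subunit gene (chr9:44891686-44891985, minus strand, 4 CpG).
Shank3: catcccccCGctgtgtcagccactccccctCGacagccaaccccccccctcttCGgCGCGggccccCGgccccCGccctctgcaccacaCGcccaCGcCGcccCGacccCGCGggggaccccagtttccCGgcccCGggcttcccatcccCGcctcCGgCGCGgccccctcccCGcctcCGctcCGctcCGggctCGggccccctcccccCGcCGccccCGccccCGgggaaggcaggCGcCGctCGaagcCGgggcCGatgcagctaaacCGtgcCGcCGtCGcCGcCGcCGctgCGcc
Kcnd2: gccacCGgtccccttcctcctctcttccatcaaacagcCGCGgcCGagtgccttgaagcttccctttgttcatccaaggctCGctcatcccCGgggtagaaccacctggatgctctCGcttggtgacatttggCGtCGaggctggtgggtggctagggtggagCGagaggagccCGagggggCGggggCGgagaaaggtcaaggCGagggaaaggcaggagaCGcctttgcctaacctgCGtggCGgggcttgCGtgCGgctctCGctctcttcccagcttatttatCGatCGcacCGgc
Igf2bp3: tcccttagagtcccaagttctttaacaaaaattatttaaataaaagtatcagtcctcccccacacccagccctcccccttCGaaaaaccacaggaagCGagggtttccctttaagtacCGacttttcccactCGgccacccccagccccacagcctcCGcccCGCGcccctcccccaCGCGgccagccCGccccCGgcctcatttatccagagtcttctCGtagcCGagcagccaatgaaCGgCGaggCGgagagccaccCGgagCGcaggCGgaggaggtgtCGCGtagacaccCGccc
Rgs14: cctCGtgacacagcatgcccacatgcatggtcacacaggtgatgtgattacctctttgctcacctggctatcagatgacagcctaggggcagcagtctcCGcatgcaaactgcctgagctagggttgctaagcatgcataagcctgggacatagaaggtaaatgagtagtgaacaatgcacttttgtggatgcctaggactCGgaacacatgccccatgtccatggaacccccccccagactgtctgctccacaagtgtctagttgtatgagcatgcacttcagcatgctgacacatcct
Cd3g: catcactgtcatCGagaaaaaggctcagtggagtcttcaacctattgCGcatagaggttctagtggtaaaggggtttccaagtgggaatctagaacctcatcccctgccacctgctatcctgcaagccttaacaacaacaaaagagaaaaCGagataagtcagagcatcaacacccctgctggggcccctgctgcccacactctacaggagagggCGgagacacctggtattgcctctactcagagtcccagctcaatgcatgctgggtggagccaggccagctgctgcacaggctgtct

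The E17.5 lists were longer and covered more of the genome than the E11.5 lists. Peaks numbered 19166 and 13850 in the E11.5 replicates and 43700, 27452 and 33223 in the E17.5 replicates. The peaks covered 52.4 and 38.1 Mb at E11.5 against 95.6, 62.5 and 88.7 Mb at E17.5, so that the groups did not overlap. The means were 45.2 ± 10.1 Mb (SD, n = 2) and 82.3 ± 17.504 Mb (SD, n = 3), a ratio of 1.82. With 2 against 3 samples the smallest p an exact permutation test can give is 0.2, which is the value found here, and no single-value comparison of these lists could reach 0.05. Peak calling depends on read depth, and the lists carry none, so depth is unknown and its part in the number of peaks was not tested.

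Peaks at E17.5 were shorter and less enriched at the median, while those that passed a stricter cut covered more bases. Median peak length was 1327 and 1386 bp at E11.5 against 956.5, 1002 and 1126 bp at E17.5. Median fold enrichment over local background (column 7 of the lists) was 2.96 and 3.17 at E11.5, compared with 2.69, 2.77 and 2.76 at E17.5. The highest fold enrichment of a list was 33.7 and 29.3 at E11.5 against 24.0, 18.4 and 18.8 at E17.5. Both measures were lower in every E17.5 list than in either E11.5 list (exact permutation p = 0.2 for the medians, the smallest possible), but at the same number of top-ranked peaks per list the difference of the medians turned from −0.32 to 0.0908. Peaks of at least 10 kb numbered 768 and 560 at E11.5, compared with 1305, 848 and 1448 at E17.5.

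The humanized lists did not share the difference in covered bases. They covered 65.7 and 52.2 Mb at E11.5 against 64.2, 88.5 and 48.2 Mb at E17.5, and 45.3 and 51.6 Mb against 57.6, 60.2 and 47.8 Mb on the autosomes, so that the stage groups overlapped in both counts. Their peaks were shorter at E17.5, as in wild type, with medians of 1390 and 1563.5 bp against 952, 1158 and 1142 bp. Their highest fold enrichments were also lower, at 30.9 and 38.5 against 18.2, 19.5 and 16.4.

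With peaks limited to a −log10 q-value (column 9) of 5 or more, 5020 and 4259 peaks remained at E11.5 against 6094, 4769 and 4856 at E17.5. The peaks that passed were 26.2% and 30.8% of the E11.5 lists and 13.9%, 17.4% and 14.6% of the E17.5 lists. They covered 32.5 and 25.7 Mb at E11.5, compared with 46.8, 34.1 and 38.5 Mb at E17.5, a ratio of 1.37. The stage groups still did not overlap in covered bases, while their numbers of peaks now did. Just below the cut, between 4.9 and 5, each list held 71 to 102 peaks with median fold enrichments of 3.55 to 3.82, and just above it, between 5 and 5.1, each held 51 to 111 peaks with medians of 3.602 to 3.896.

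**Figure D1:**
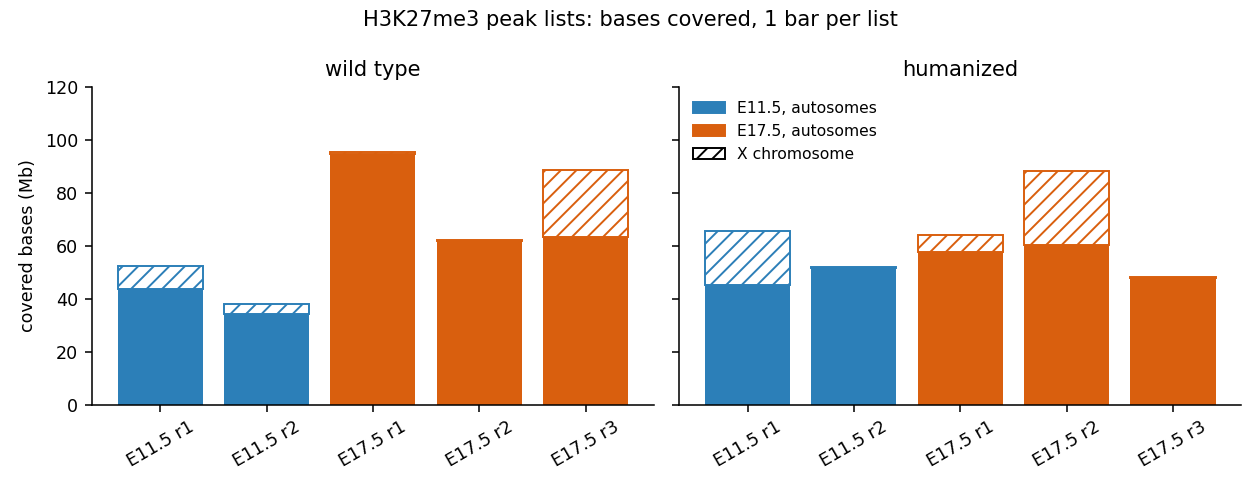
Megabases covered by H3K27me3 peaks, with 1 bar per list, filled for the autosomes and hatched for the X chromosome, in wild type (left) and humanized embryos (right). All 3 wild type E17.5 bars are taller than both E11.5 bars, while the humanized bars overlap between stages and the hatched part varies from list to list.

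The X chromosome stood apart from the autosomes. It took 8.64 and 3.62 Mb at E11.5, but 0.687, 0.476 and 25.5 Mb at E17.5, so that E17.5 replicate 3 had 28.7% of its covered bases on the X and the other E17.5 lists 0.718% and 0.762%. The humanized lists were as uneven, with 20.5 and 0.654 Mb at E11.5 against 6.62, 28.2 and 0.379 Mb at E17.5. H3K27me3 covers the inactive X of female cells, but the sex of the embryos in a pool is not given in the sources used here, and its part was not tested. The example is a region of 173 kb at chrX:102296289-102469065, covered over 159838 and 130732 bp at E11.5, compared with over 5193, 4828 and 171960 bp at E17.5. On the autosomes alone the lists covered 43.8 and 34.4 Mb at E11.5 against 94.9, 62.0 and 63.2 Mb at E17.5, a ratio of 1.88.

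Merging the peaks of the 5 lists at an overlap of 1 bp gave 57105 regions over 137 Mb. Of these, 975 (1.71%) were in both E11.5 lists and no E17.5 list, 7557 (13.2%) were in all 3 E17.5 lists and no E11.5 list, and 6508 were in all 5. The other 42065 were in some lists only, and 17957 of them came from E17.5 replicate 1 alone. A test of presence in a single region cannot go below p = 0.1 (Fisher's exact test, 2 against 3), so no region was called on its own presence. The autosomes alone gave 958, 7542 and 6404. The E11.5-only count rested on single libraries, and was 1679 without E11.5 replicate 1, 2962 without E11.5 replicate 2 and 2392 without E17.5 replicate 3. Lists of the same stage shared more bases than lists of different stages, with a mean ratio of shared to joint bases of 0.548 over 4 pairs (range 0.474 to 0.644) against 0.358 over 6 pairs (range 0.294 to 0.409).

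The excess of E17.5-only regions depended on the length of the lists. With peaks of column 9 of 5 or more there were 749 E11.5-only and 1020 E17.5-only regions. When the same number of peaks (13850), ranked by column 9, was taken from each list there were 1784 and 2212, and when the same number of bases (38.1 Mb) was taken the order turned, with 2289 E11.5-only and 343 E17.5-only regions. The stage with more exclusive regions is therefore not fixed by these files, and the account below turns on which regions were exclusive and on what lay in them.

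Regions shared by all 5 lists held most of the mark. They were the longest, with a median of 5898 bp against 1700 bp for E11.5-only and 2286 bp for E17.5-only regions. They made up 72.1% and 83.7% of the covered bases at E11.5 but 52.6%, 68.1% and 50.1% at E17.5. A protein-coding start lay in 46.2% of them, in 8.31% of E11.5-only and in 4.74% of E17.5-only regions, while 64% of E11.5-only regions and 37.8% of E17.5-only regions overlapped a coding gene. H3K4me3 peaks of the 5 wild type H3K4me3 lists overlapped 72.4% to 73.8% of shared regions, 40.8% to 41.9% of E11.5-only regions and 12.3% to 14.0% of E17.5-only regions, where 15.1% to 15.7% of all regions did. H3K27ac, a mark of active promoters and enhancers, overlapped 25.6% to 28.8% of E11.5-only regions at E11.5, compared with 50.7% to 53.3% at E17.5. The corresponding ranges were 12.3% to 13.6% and 16.2% to 18.8% for E17.5-only regions, and 24.5% to 26.8% and 52.0% to 56.8% for shared regions. Over all regions the H3K27ac share rose as well, from 8.41% and 9.28% at E11.5 to 15.6% to 17.8% at E17.5, so that the step in E17.5-only regions was no larger than that over all.

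The longest shared regions were the 4 Hox clusters and the X-linked region above (regions named for length here were chosen after their values were seen). Chromosome 18 was left out of all rankings by length, here and for the stage-exclusive regions below. The Hoxc region spanned 242 kb (chr15:102801297-103043439), Hoxa 191 kb (chr6:52115818-52307264), Hoxb 142 kb (chr11:96136024-96277847) and Hoxd 136 kb (chr2:74469165-74605514). The Hoxa region was covered over 185402 and 175704 bp at E11.5 against over 191417, 187273 and 188575 bp at E17.5. The mark thus lay over most of the cluster at both stages.

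Outside chromosome 18, the longest E17.5-only regions lay inside Ebf1, a transcription factor gene, with 37.9 kb at chr11:44659032-44696964 and 31.9 kb at chr11:44530194-44562080. Next came a region of 24.8 kb at the start of Wls, which encodes the carrier that brings Wnt proteins to the cell surface (chr3:159537206-159561968). Of the next pair, both of 22.1 kb, one overlapped no coding gene (chr14:99077079-99099192) and the other lay in Fgfr2, a fibroblast growth factor receptor gene. The first Ebf1 region was covered over 35854, 29738 and 30167 bp in the E17.5 lists and over 0 bp in both E11.5 lists. RNA of Ebf1 was 113 ± 28.1 CPM (counts scaled by library size, SD, n = 4) at E11.5, compared with 45.4 ± 11.4 CPM at E17.5, and RNA of Fgfr2 was 154 ± 16.2 CPM and 35.5 ± 4.64 CPM. The longest E11.5-only regions, again outside chromosome 18, were shorter. They lay in Cdk14, a cyclin-dependent kinase gene (14.4 kb), in Ptn, which encodes the growth factor pleiotrophin (12.3 kb), and in Smap2 (8.65 kb). RNA of Ptn rose from 175 ± 26.8 to 668 ± 140 CPM.

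Of 21757 protein-coding promoters, 331 (1.52%) were called in both E11.5 lists and no E17.5 list, 553 (2.54%) in all E17.5 lists and no E11.5 list, 3249 (14.9%) in all 5 lists, 2151 in some and 15473 in none. Without E11.5 replicate 2 the E11.5-only count was 584, and without E17.5 replicate 1 it was 501. The balance again moved with list length. The E11.5-only and E17.5-only counts were 417 (1.92%) and 434 (1.99%) with column 9 of 5 or more, 543 and 373 at equal numbers of peaks, and 900 and 196 at equal bases. Across all of these list settings, 83 promoters stayed E11.5-only, 120 stayed E17.5-only and 2054 stayed in all lists. At the start site itself 15.2% and 13.3% of coding genes were covered at E11.5 against 17.4%, 14.8% and 15.6% at E17.5, whereas 5 kb upstream the shares were 4.07% and 3.04% against 9.40%, 6.46% and 7.42%. The stage groups overlapped at the start and separated away from it.

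The exclusive promoters of the stages differed in sequence and in the active marks. The median number of CpG in the 300 bases around the start was 17 in E11.5-only, 6 in E17.5-only and 12 in shared promoters, against 8 over all coding promoters. At least 10 CpG were found in 70.1% of E11.5-only and 34.7% of E17.5-only promoters, with 45.7% over all. At most 3 CpG, as in Rgs14 above, were found in 6.65% and 24.8%, with 28.2% over all. H3K4me3 was called at 97.6% to 98.5% of E11.5-only promoters and at 59.3% to 60.9% of E17.5-only promoters, with 60.7% to 61.5% over all. H3K27ac was called at 79.2% to 83.7% of E11.5-only promoters at E11.5 and at 97.9% to 99.1% at E17.5. For E17.5-only promoters the ranges were 39.2% to 40.5% at E11.5, compared with 46.5% to 49.9% at E17.5, and for shared promoters 25.8% to 27.6% and 55.5% to 59.8%. Over all coding promoters they were 46.1% to 47.2% and 55.6% to 57.1%, a step about as large as that of E17.5-only promoters. Nearly every promoter that had H3K27me3 at E11.5 only was thus also marked by H3K4me3 at both stages and by H3K27ac at E17.5.

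**Figure D2:**
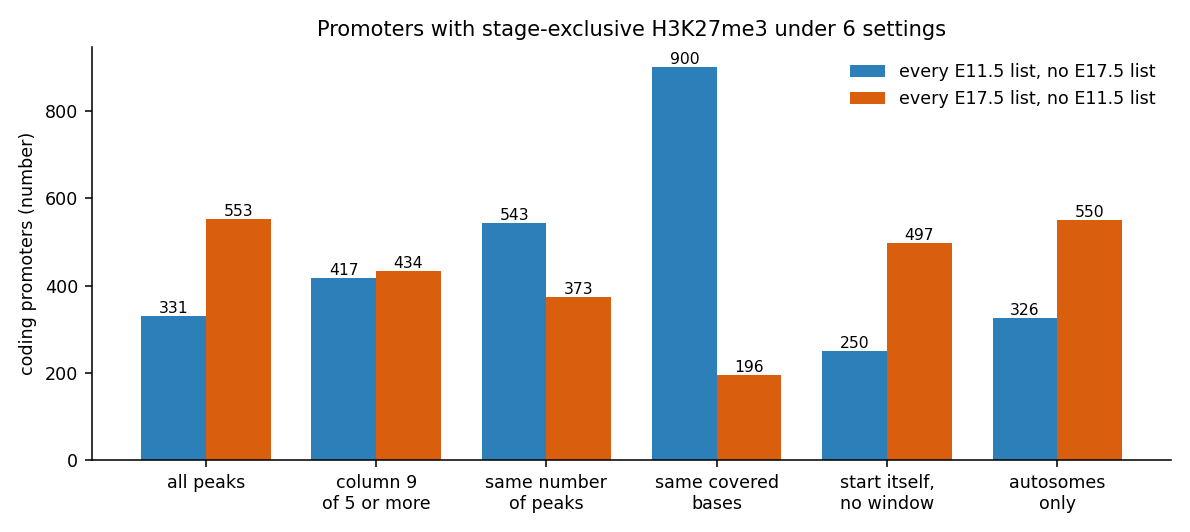
Number of protein-coding promoters called in both E11.5 lists and no E17.5 list (blue) or in all E17.5 lists and no E11.5 list (orange), under 6 settings. The blue count runs from 250 at the start itself to 900 at equal bases per list, and the orange count from 553 with all peaks down to 196 at equal bases.

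RNA of the same tissue, which the classes did not use, moved in opposite directions at the exclusive promoters. Over 14340 coding genes that passed the filter on low counts, 4620 (32.2%) were higher at E17.5 and 3688 (25.7%) lower (edgeR, adjusted p under 0.05), with a median log2 change of 0.06. Of the 331 E11.5-only genes 322 passed the filter, and 224 of these (69.6%) were higher and 24 (7.45%) lower at E17.5. Of the 553 E17.5-only genes 384 passed, and 79 (20.6%) were higher and 182 (47.4%) lower. The median log2 changes were 1.29 and −0.63, and median levels went from 23.5 to 59.98 CPM and from 12.8 to 7.93 CPM. RNA replicate 1 of E17.5 stood apart from the other 3 for many of the genes named below, and without it 230 E11.5-only genes were higher and 213 E17.5-only genes lower. Shared promoters (2614 of 3249 passed) had 1266 genes higher (48.4%) and 621 lower (23.8%), from a low median level of 5.44 CPM at E11.5 to 10.1 CPM at E17.5.

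The same contrast was seen at those promoters that kept their class under every list setting. Of 82 such E11.5-only genes tested, 64 were higher and 2 lower, with a median log2 change of 1.71. Of 103 such E17.5-only genes, 10 were higher and 65 lower, with a median of −1.14. Markers of other tissues also moved with stage in these RNA libraries. The summed level of 4 telencephalon markers, all measured, was 1.47 to 2.08 CPM at E11.5 against 49.3 to 82.6 CPM at E17.5. That of 3 choroid plexus markers was 5.51 to 6.83 and 141 to 304 CPM. Most of the latter was Ttr (mean 225 CPM), Kl was also higher and Folr1 did not pass. The sum of 4 erythroid markers was 1246 to 2628 and 51.4 to 239 CPM. This fall lay in the globin genes Hbb-y (means 1212 and 0.0759 CPM) and Hbb-bh1 (531 and 0.013 CPM). Hbb-bt and Hba-a1 did not pass, so the sum does not show a loss of blood cells. The sum of 4 meningeal markers was 729 to 972 and 242 to 437 CPM, with Col1a1, Col1a2 and Lum lower but Dcn higher. Summed diencephalon markers (12 of 12 measured) were 1648 to 2210 and 1608 to 1940 CPM. Most of that sum was Tcf7l2 (means 1048 and 1202 CPM), which did not pass. Of the 12, Otx2 (means 302 and 35.6 CPM), Barhl2, Irx2 and Lhx2 were lower, and Lhx9, Dlx1 and Otp higher. None of 4 hindbrain and spinal cord markers passed the filter. Summed levels of 5 neuronal markers were 1128 to 1400 and 2899 to 4470 CPM, of 4 astrocyte markers 166 to 187 and 405 to 468 CPM, of 4 oligodendrocyte lineage markers 78.7 to 89.9 and 164 to 229 CPM, and of 4 progenitor markers 2029 to 2575 and 285 to 412 CPM. Endothelial (241 to 292 and 184 to 350 CPM) and microglial (31.5 to 40.2 and 29.5 to 57.5 CPM) sums overlapped between the stages. The part of tissue makeup in the changes of mark or RNA was not tested.

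**Figure D3:**
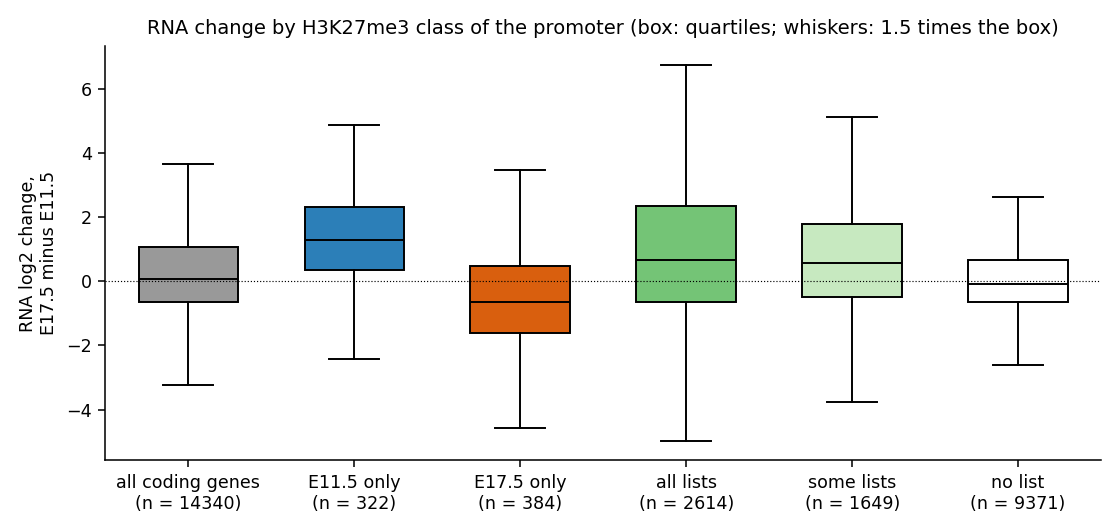
RNA log2 change, E17.5 minus E11.5, of protein-coding genes by the H3K27me3 class of their promoter, from 4 RNA replicates per stage, with boxes at the quartiles, a line at the median and whiskers to at most 1.5 times the box. The median is 1.29 for E11.5-only, −0.63 for E17.5-only and 0.68 for shared promoters, against 0.06 over all coding genes tested.

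Genes whose promoters lost their call by E17.5 included those of mature neurons. Of 56 synaptic and neurotransmitter receptor genes, 3 were E11.5-only (5.36%, against 1.52% of all coding promoters), none E17.5-only and 23 shared (41.1% against 14.9%). With column 9 of 5 or more 13 were E11.5-only (23.2% against 1.92%). Shank1, which encodes a postsynaptic scaffold, had 5140 and 2872 bases covered within 5 kb of its start at E11.5 and 0 in each E17.5 list. Its RNA was 34.2 to 50.0 CPM in the E11.5 replicates and 163 to 362 CPM at E17.5, a log2 change of 2.62 ± 0.28 (SE, adjusted p = 2.06e-05). Gria2, an AMPA receptor subunit gene, had 3886 and 2251 bases at E11.5, compared with 684, 1561 and 0 at E17.5, and its RNA rose from 7.41 to 20.3 CPM to 142, 517, 479 and 596 CPM (log2 change 4.87 ± 0.50, adjusted p = 1.68e-05). Shank3 had 3108 and 1372 bases at E11.5 against 929, 475 and 0 at E17.5, with an RNA change of 1.70 ± 0.22. These genes were named by their calls and covered bases, so the separation of the lists there is no further result. RNA did not enter that rule, and its stage groups did not overlap for any of them.

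Of 41 voltage-gated ion channel genes, 1 was E11.5-only (2.44%, near the 1.52% of all coding promoters), none was E17.5-only and 27 were shared (65.9%). With column 9 of 5 or more 7 were E11.5-only (17.1% against 1.92%). Kcnd2, a potassium channel gene of the A-type current, had 2713 and 1877 bases at E11.5 and 0 in each E17.5 list. Its RNA was 2.89 to 6.76 CPM at E11.5, compared with 68.7 to 199 CPM at E17.5 (adjusted p = 4.24e-06). Of 24 astrocyte and ependymal genes, 1 was E11.5-only (4.17% against 1.52%) and 1 E17.5-only (4.17% against 2.54%). With column 9 of 5 or more none was E11.5-only and 4 were E17.5-only (16.7% against 1.99%). The E11.5-only promoter was Sparcl1, an astrocyte-secreted protein gene with a role at synapses. It had 2744 and 824 bases at E11.5 against 0 at E17.5, and its RNA rose from 49.3 to 63.3 CPM to 269.7 to 346 CPM. Shank1, Kcnd2 and Sparcl1 passed no cut at column 9 of 5, and their fold enrichments at E11.5 were 3.02 to 3.59.

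Over all coding genes, the E11.5-only promoters with the most covered bases included Sobp, 5730409E04Rik, Gadd45g, Dusp4 and Arhgap20. Sobp, a gene of inner ear and brain development, had 7609 and 6251 bases at E11.5, compared with 1674, 498 and 260 at E17.5, and its RNA rose by a log2 change of 1.58 ± 0.27. 5730409E04Rik had 10001 and 9275 bases, the full window or nearly so, at E11.5 against 5462, 3146 and 3068 at E17.5, with an RNA change of 2.99 ± 0.27. Gadd45g, a stress- and differentiation-linked gene, had 6816 and 7260 bases at E11.5, compared with 5941, 5063 and 5386 at E17.5, so the mark persisted beside a start that was no longer called, and its RNA fell by 3.28 on the log2 scale. Chrd, which encodes the BMP antagonist chordin, was likewise still covered over 2968 to 3392 bases around its start at E17.5, after 4095 and 3292 at E11.5. RNA of Chrd was 4.37 to 5.48 CPM at E11.5 against 5.55 to 8.33 CPM at E17.5, which did not pass (adjusted p = 0.0557). Dusp4, a MAP kinase phosphatase gene, and the Wnt receptor gene Fzd8 did not pass either (log2 changes of 0.32 ± 0.30 and −0.04 ± 0.25).

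Genes of early embryonic tissue and progenitors went the other way. Of 32, none was E11.5-only, 6 were E17.5-only (18.8%, against 2.54% of all coding promoters) and 19 shared (59.4%). With column 9 of 5 or more 8 were E17.5-only (25% against 1.99%). Igf2bp1 to Igf2bp3 encode RNA-binding proteins that stabilise mRNAs in the embryo. Igf2bp1 had 0 bases covered in both E11.5 lists and 7052, 6788 and 6811 at E17.5, and its RNA fell from 507, 699, 588 and 705 CPM to 20.6, 16.7, 13.8 and 11.7 CPM (log2 change −5.32 ± 0.25, adjusted p = 3.12e-07). Igf2bp3 had 0 and then 7413, 7722 and 7637 bases, with RNA of 174 to 238 CPM at E11.5, compared with 11.8 to 21.4 CPM at E17.5. Igf2bp2 had 0 and then 4933, 4208 and 4609 bases, with RNA of 205 to 262 and then 21.1 to 24.6 CPM, but its E17.5 peaks were at fold enrichments of 3.31 to 3.58 and did not pass column 9 of 5. All 3 family members were named for being called at E17.5 only. RNA did not enter that rule, and for each it was lower in every E17.5 replicate than in any E11.5 replicate.

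Prtg, which encodes the early neural surface protein protogenin, had 0 and 1087 bases at E11.5 against 8499, 8225 and 8560 at E17.5, and its RNA was 20.02 to 36.5 CPM and then 2.19 to 5.87 CPM. Wls had 0 bases at E11.5, compared with 10001, 9634 and 9477 at E17.5, with RNA of 199 to 237 CPM and then 45.5 to 75.5 CPM. Jag1, a Notch ligand gene, had 391 and 286 bases and then 8678, 7934 and 9036, with RNA of 71.5 to 125 CPM and then 13.5 to 24.3 CPM. Tnfrsf19, a receptor gene of neural progenitors, had 0 and then 10001, 8462 and 9571 bases, and its RNA fell by 1.47 on the log2 scale. RNA of each of these 4 genes was lower in every E17.5 replicate than in any E11.5 replicate. Wls and Tnfrsf19 were no longer E17.5-only with column 9 of 5 or more or at equal bases per list. Their fold enrichments at E17.5 were 2.97 to 4.05.

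Some promoters gained the mark without a fall in RNA. Tcf7l2, a transcription factor gene of thalamic and habenular neurons, had 865 and 0 bases at E11.5 against 7595, 7127 and 6969 at E17.5, and it was E17.5-only under every list setting. Its RNA was 884 to 1324 CPM at E11.5, compared with 1029 to 1357 CPM at E17.5, a log2 change of 0.20 ± 0.18 that did not pass (adjusted p = 0.385), and H3K4me3 and H3K27ac were called at its start in all 5 lists of each mark. H3K27me3 and active marks in 1 pool cannot be assigned to the same cells. Nr4a2, an orphan nuclear receptor gene of the habenula, had 0 bases at E11.5 against 7584, 6250 and 6340 at E17.5, with RNA of 51.1 to 74.4 and 39.9 to 77.1 CPM. Nfib, a transcription factor gene of glial differentiation, had 0 and then 3224, 2900 and 2454 bases, and its RNA rose from 20.7 to 34.7 CPM to 124 to 246 CPM. Neurod6, a gene of cortical projection neurons, had 1037 and 1032 and then 7357, 6741 and 6164 bases, and its RNA was 0 to 0.204 CPM at E11.5, compared with 11.4 to 13.3 CPM at E17.5. Of the 4 telencephalon markers in the RNA, 3 were higher and 1 lower at E17.5, and their part in the Neurod6 values was not tested. Unlike Tcf7l2, the genes Nr4a2, Nfib and Neurod6 were no longer E17.5-only with column 9 of 5 or more or at equal bases per list. Their fold enrichments at E17.5 were 3.06 to 4.56.

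The E17.5-only promoters with the most covered bases also included 3 genes whose RNA counts did not pass the filter. Cd3g had 0 bases at E11.5 against 10001, 8141 and 10001 at E17.5, the adjacent Cd3d had 0 and then 10001, 6793 and 9198, and Rgs14 had 0 and then 9672, 8753 and 7812. None of the 3 had an H3K4me3 or H3K27ac call at its start in any list. Nr2f1, an orphan nuclear receptor gene of forebrain patterning, had 3005 and 3050 bases at E11.5, compared with 10001, 10001 and 7491 at E17.5, with an RNA change of −0.73 ± 0.20 (adjusted p = 0.00908). Its promoter was no longer E17.5-only with column 9 of 5 or more or at equal bases, with fold enrichments of 6.64, 5.28 and 3.10 at E17.5. Eya1, a co-activator gene of placodes and muscle, had 3815 and 3818 and then 8004, 6563 and 7163 bases, with an RNA change of −0.42 ± 0.42 that did not pass.

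**Figure D4:**
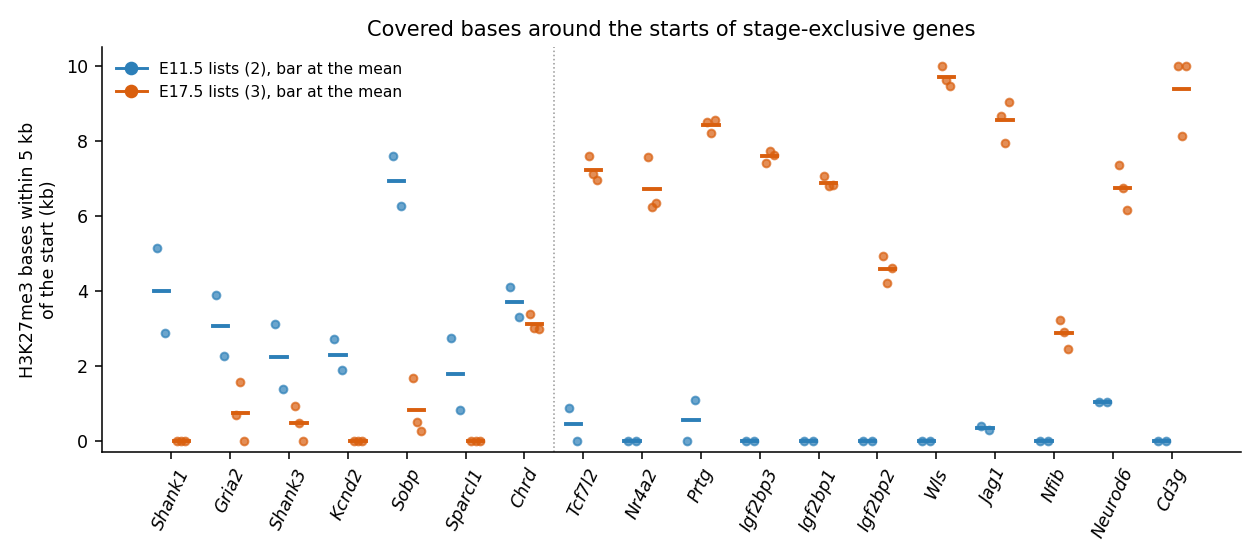
Bases covered by H3K27me3 peaks within 5 kb of the annotated start in each wild type list, for promoters called at E11.5 only (left of the dotted line) or E17.5 only (right), with 1 point per list and bars at the means. Shank1, Kcnd2 and Sparcl1 have 0 bases in every E17.5 list, and Igf2bp1, Igf2bp2 and Igf2bp3 have 0 bases in both E11.5 lists.

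Most regional transcription factors kept their promoter calls at both stages. Over all coding promoters 14.9% were in all 5 lists and 71.1% in none. All 39 Hox genes, which lay in only 5 merged regions, and all 21 prethalamic and GABAergic selectors were called in all 5 lists. All 20 hypothalamic factors and all 26 midbrain, hindbrain and spinal cord factors were called in all 5 lists as well. So were 23 of 27 thalamic and habenular factors, 15 of 16 telencephalic factors, 55 of 66 factors of non-neural lineages and 33 of 37 patterning genes. Among hypothalamic neuropeptide genes 12 of 23 were shared and 8 were in no list, among oligodendrocyte lineage genes 11 of 19 and 7, and among astrocyte and ependymal genes 13 of 24 and 4. Of 21 markers of endothelium, microglia, meninges, choroid plexus and blood, 5 were shared (23.8%) and 12 were in no list. The microglial gene Tmem119 alone was E17.5-only (4.76%, against 2.54% of all coding promoters), and it lost this class with column 9 of 5 or more. Among 20 ubiquitously expressed control genes none was shared or exclusive, and 18 were in no list.

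Constant calls went with changing RNA in several of these lists. The Dlx1 and Dlx2 starts, of homeodomain factors of the prethalamus, had their whole windows of 10001 bases covered in all 5 lists, and RNA of Dlx1 was 21.5 to 35.6 CPM at E11.5 against 68.8 to 97.6 CPM at E17.5. Wnt1, a roof plate signal, was covered throughout in all lists, with RNA of 3.28 to 5.76 and then 0 to 0.574 CPM. Npy, which encodes neuropeptide Y, was covered over 6346 and 5433 bases at E11.5, compared with 9813, 9190 and 9468 at E17.5, and its RNA rose from 0.327 to 1.53 CPM to 11.04 to 22.7 CPM. Fold enrichment at these starts was lower in every E17.5 list. At Dlx1 and Dlx2 it went from 21.6 and 18.0 to 16.4, 12.2 and 12.9. At Wnt1 it went from 21.5 and 17.7 to 15.5, 12.5 and 12.1, and at Npy from 15.6 and 12.9 to 10.4, 8.74 and 9.12. The highest fold enrichments of whole lists were also lower at E17.5.

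Within the 6508 shared regions the strength of the mark was compared as the log2 of column 7, centred on each list's median and fitted with limma. The median fold enrichment of a list over these regions was 4.70 and 4.18 at E11.5 against 4.68, 3.95 and 4.06 at E17.5. A total of 1727 regions (26.5%) were higher and 2250 (34.6%) lower at E17.5 (adjusted p under 0.05), with a median log2 change of −0.04 and a range of −1.97 to 2.03. The 1627 regions with the highest mean fold enrichment had 286 higher and 851 lower, and the 1627 with the lowest had 203 higher and 237 lower. With quantile normalization of the lists, which makes their distributions alike, 2031 regions were higher and 1935 lower, so the split of directions rests on the scaling. The regions named next kept their direction and call in each alternative that held a region of the same bounds. Where an alternative changed the bounds of a named region, that region was not compared.

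The largest gains included regulators of early development. The region of Sall4, a zinc-finger factor of pluripotent and early embryonic cells (chr2:168602710-168613110), had fold enrichments of 3.20 and 2.98 at E11.5, compared with 15.5, 10.1 and 11.01 at E17.5, a log2 change of 2.03 ± 0.10 (SE, adjusted p = 3.65e-11). Its RNA was 19.7 to 40.6 CPM at E11.5 against 0 to 0.511 CPM at E17.5. The region of Trim71, a regulator of mRNA in early embryos and a target of the let-7 microRNAs (chr9:114384670-114396179), went from 4.71 and 3.89 to 14.5, 11.1 and 11.3, with RNA of 19.3 to 37.0 and then 0.261 to 0.553 CPM. Otx2, a homeodomain factor of the early forebrain and midbrain (chr14:48885499-48917545), went from 3.55 and 3.61 to 14.5, 11.4 and 11.52, with RNA of 273 to 342 and then 32.9 to 40.9 CPM. These regions were named for their change in fold enrichment, so the separation of the lists there is no further result. RNA did not enter that rule, and its stage groups did not overlap for any of the genes Sall4, Trim71 and Otx2.

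Ephb4, an ephrin receptor gene of vessels (chr5:137345371-137350948), changed by 2.02 ± 0.09 in log2 fold enrichment, and its RNA fell by 2.30 on the log2 scale. Tgif1, a repressor of TGF-β signalling, changed by 1.66 ± 0.11, Zfp36l1, which encodes an mRNA decay factor, by 1.62 ± 0.14, and Car14, a carbonic anhydrase gene, by 1.56 ± 0.11, and RNA of all 3 was lower at E17.5. Vsir, an immune checkpoint gene, changed by 1.52 ± 0.10 in fold enrichment, with RNA of 3.37 to 5.83 and then 3.87 to 8.92 CPM (adjusted p = 0.297).

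The largest losses included neuronal genes. The region of Camk2b, which encodes the beta subunit of the synaptic kinase CaMKII (chr11:6012588-6020930), had fold enrichments of 18.6 and 14.3 at E11.5, compared with 4.22, 4.16 and 3.48 at E17.5, a log2 change of −1.97 ± 0.10 (adjusted p = 3.83e-11). Its RNA was 7.81 to 11.8 CPM at E11.5 against 252 to 563 CPM at E17.5 (log2 change 5.17 ± 0.34). Flrt2, an adhesion gene of migrating neurons and axons (chr12:95657641-95661618), went from 13.5 and 11.2 to 3.37, 3.07 and 3.45, with an RNA change of 0.94 ± 0.33. Csmd1, a brain-expressed gene of a complement-regulating membrane protein (chr8:17580878-17587051), changed by −1.74 ± 0.09 in fold enrichment, and its RNA rose from 0.654 to 1.23 CPM to 30.6 to 66.7 CPM. The region of Ina, which encodes the neuronal filament protein internexin, and of the neighbouring Nt5c2 changed by −1.66 ± 0.09, and RNA of Ina rose by 1.30 ± 0.26 while that of Nt5c2 did not pass. Pcdh1, C1qtnf4 and Zfp580 changed by −1.85 ± 0.09, −1.65 ± 0.10 and −1.62 ± 0.09 in fold enrichment, and RNA of each rose.

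By list, regions of synaptic and ion channel genes fell and regions of astrocyte genes mostly rose under both scalings. Of 23 regions of synaptic genes none rose and 18 fell (median log2 change −0.53), and with quantile normalization none rose and 16 fell. Of 29 regions of ion channel genes 2 rose and 21 fell (median −0.57), and with quantile normalization 2 rose and 22 fell. Of 13 regions of astrocyte and ependymal genes 8 rose and 2 fell (median 0.64), and the same counts came with quantile normalization. RNA of that list mostly rose too, with 17 of its 24 genes higher and 4 lower (70.8% and 16.7%). Over all coding genes the shares were 32.2% and 25.7%. Of 20 regions of early embryonic and progenitor genes 9 rose and 5 fell (median 0.18), or 12 and 2 with quantile normalization, and of 23 regions of thalamic and habenular factors 13 rose and 7 fell, or 15 and 4. The background over all 6508 regions was 26.5% higher and 34.6% lower. Over the 3005 regions that hold a coding start, as all regions of the lists do, it was 25.2% higher and 44.0% lower. With quantile normalization 2031 of the 6508 regions were higher and 1935 lower.

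Members of these lists illustrate both directions (chosen after their values were seen). Among progenitor genes, log2 fold enrichment rose by 1.41 at Hmga2, a chromatin protein gene, by 1.26 and 0.99 at the cyclin genes Ccnd2 and Ccnd1, and by 1.22 at Nes, which encodes the intermediate filament nestin, and RNA of all 4 fell. RNA was lower in 24 of the 26 tested genes of that list, although 5 of its 20 regions fell. At the start of Insm1, also of that list, fold enrichment went from 8.95 and 7.91 to 6.79, 4.79 and 5.22, and its RNA fell as well. Among synaptic and channel genes, the vesicular GABA transporter gene Slc32a1 changed by −1.07 and the potassium channel gene Kcnc1 by −1.39, and RNA of both rose. Among astrocyte genes, Id3 changed by 1.41 and Gja1, which encodes connexin 43, by 1.08, while Nfix changed by −0.93. RNA of Gja1 did not pass (log2 change −0.03), and RNA of Nfix rose. Among thalamic factors, Irx3 changed by 0.92 and Foxp2 by 1.16 in fold enrichment, and RNA of Irx3 fell while RNA of Foxp2 rose by a log2 change of 2.75.

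Most lists of constantly marked factors changed in balance with the scaling. The 5 Hox regions all fell (median −0.44) with median centring and none passed in either direction with quantile normalization. Among midbrain, hindbrain and spinal cord factors 1 region rose and 21 of 26 fell, which turned to 10 and 4 with quantile normalization. Non-neural factors went from 5 and 44 of 55 to 18 and 8, telencephalic factors from 3 and 10 of 16 to 6 and 1, and hypothalamic factors from 2 and 14 of 19 to 4 and 2. Prethalamic factors had more that fell under both scalings, with 1 and 14 of 19 and then 5 and 6 (medians −0.42 and −0.07). So did oligodendrocyte lineage genes, with 2 and 6 of 11 and then 3 and 5 (medians −0.25 and −0.12). Patterning genes went from 4 and 15 of 34 to 7 and 7, and neuropeptide genes from 1 and 3 of 12 to 4 and 2. Of 5 regions each, Polycomb-related genes had more that rose under both, with 2 and 1 and then 3 and 0 (medians 0.17 and 0.29), and markers of other cell types had 1 and 1, or 2 and 1. Regions of Hox and other developmental factors are among the longest and most enriched, and 851 of the 1627 most enriched shared regions fell with median centring.

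**Figure D5:**
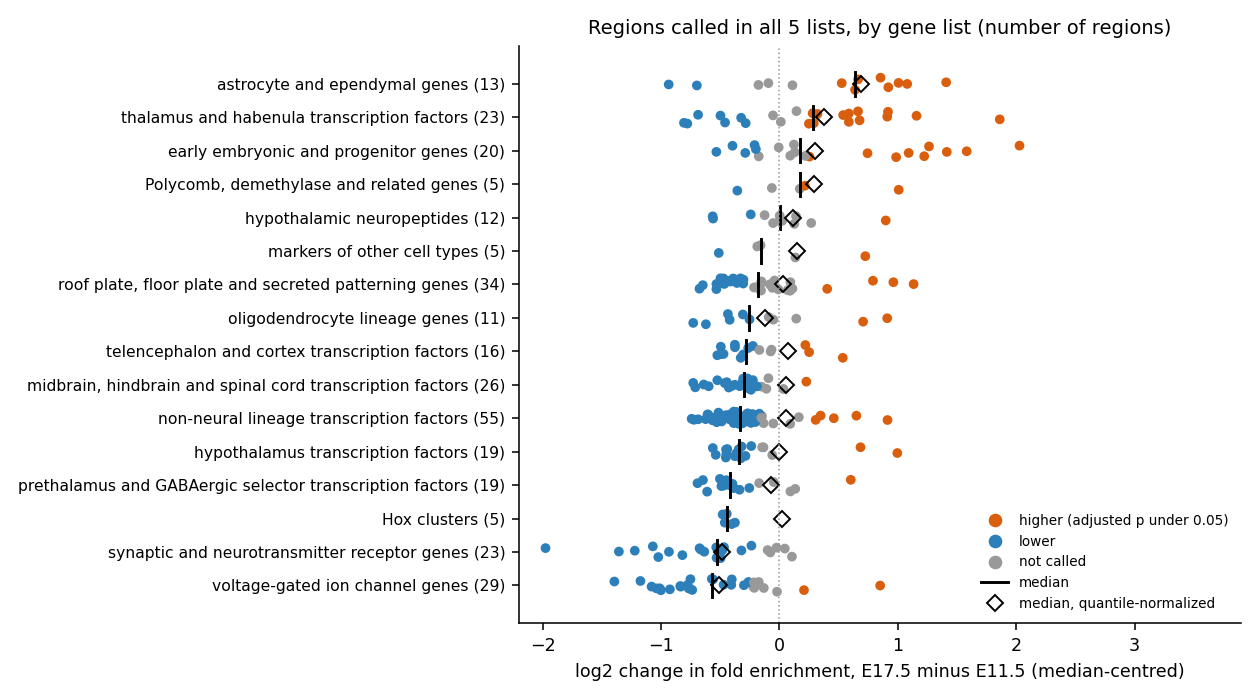
Log2 change in fold enrichment, E17.5 minus E11.5 after median centring, of regions called in all 5 lists, grouped by gene list, with each point a region, black bars at the medians and open diamonds at the medians after quantile normalization. Synaptic and ion channel regions have medians of −0.53 and −0.57 under median centring, while the Hox median moves from −0.44 to 0.02 with quantile normalization.

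Across the shared regions that hold a coding start, RNA moved opposite to the mark more often than with it. Of 642 tested genes in regions that rose, 137 were higher (21.3%) and 289 lower (45.0%) in RNA, with a median log2 change of −0.55. Of 1181 genes in regions that fell, 816 were higher (69.1%) and 130 lower (11.01%), with a median of 1.98. Of 782 genes in regions that did not pass, 351 were higher and 193 lower (median 0.53). With quantile normalization of the mark, 171 of 803 genes in rising regions were higher and 355 lower in RNA, and 741 of 960 genes in falling regions were higher and 65 lower.

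In RNA, of 35 genes of Polycomb subunits, demethylases and related factors, 5 were higher and 12 lower at E17.5 (14.3% and 34.3%, against 32.2% and 25.7% of all coding genes). Ezh2 had 213 to 325 CPM at E11.5, compared with 34.3 to 61.4 CPM at E17.5, a log2 change of −2.33 ± 0.23 (adjusted p = 1.38e-05). Ezh1 had 21.4 to 24.3 and then 48.99 to 69.7 CPM, a change of 1.26 ± 0.18. Among genes of other subunits, Cbx2, a chromatin reader of canonical PRC1, changed by −3.21 ± 0.27, Epop, a PRC2 accessory gene, by −3.13 ± 0.43 and Phc2, a PRC1 scaffold gene, by −1.80 ± 0.33, while Phc3 rose by 1.39 ± 0.36 and Phf1 by 1.20 ± 0.27. Of the promoters of these 35 genes, 10 were shared (28.6%, against 14.9% of all coding promoters), none was stage-exclusive and 23 were in no list.

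The humanized line, whose lists took no part in the classes, had the same stage pattern at these regions, although not in total covered bases. Of 928 wild type E11.5-only regions outside chromosome 13, a mean of 94.2% was overlapped by a humanized E11.5 list and 2.51% by a humanized E17.5 list. Of 7207 E17.5-only regions the means were 11.3% and 74.6%, and of 6204 shared regions 99.1% and 97.1%. The stage groups did not overlap in any of the 3 comparisons (exact permutation p = 0.2, the smallest possible for 2 against 3). Without wild type E17.5 replicate 3, 2343 regions were E11.5-only, their means were 69.0% and 37.0%, and the humanized groups then overlapped (exact permutation p = 0.6). By list the shares were 96.5% and 41.5% at E11.5 against 50.1%, 60.0% and 0.726% at E17.5. The replicate left out was the wild type E17.5 list with 28.7% of its covered bases on the X chromosome. The part of the X in these shares was not tested. The same full pattern of calls in all 5 humanized lists was found at 778 of the 928 E11.5-only regions (83.8%), 2947 of the 7207 E17.5-only regions (40.9%) and 5756 of the 6204 shared regions (92.8%).

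At promoters, 262 of 315 E11.5-only genes outside chromosome 13 (83.2%) were also in both E11.5 and no E17.5 list of the humanized line, 247 of 535 E17.5-only genes (46.2%) had the matching pattern, and 1 of the 535 had the opposite one. Shank1, Shank3, Gria2 and Kcnd2 were each called in both humanized E11.5 lists and no humanized E17.5 list. Igf2bp1, Igf2bp2, Igf2bp3, Prtg and Tcf7l2 were each called in all 3 humanized E17.5 lists and no humanized E11.5 list. Over the promoters named by rule, 13 of 14 E11.5-only and 12 of 19 E17.5-only genes had the full pattern. These counts include genes of chromosome 13, such as Gadd45g and Nr2f1. Of the other E17.5-only genes, Jag1 was called in all 5 humanized lists, Nr4a2, Tnfrsf19 and Wfdc21 also in 1 humanized E11.5 list, Nr2f1 and Tmem119 in 2 of the 3 humanized E17.5 lists alone, and Myf6, a muscle regulator gene, in none. The E11.5-only gene Sparcl1 was also called in 1 humanized E17.5 list.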

How the data were processed

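H3K27me3 ChIP-seq (Cell Signaling antibody 9733S) and polyA RNA-seq (KAPA mRNA HyperPrep) were made from pooled diencephalon. ChIP-seq reads were aligned by the authors with Bowtie2 2.4.2 to mm39. They removed duplicate and multi-mapping reads with Sambamba, and called peaks on each replicate with MACS2 2.2.7.1. The H3K27me3 lists have the 9 columns of broad peak lists, and the setting used for them is not given in the sources used here. Of the deposited columns, column 7 is the fold enrichment (a ratio) over local background and column 9 the −log10 of the q-value, while read depth is unknown. For RNA, the authors deposited raw counts per gene from STAR 2.7.9a on mm39 with GENCODE release 31 basic, and the unstranded column was used. Lines that name no gene (48.1% to 55.3% of counts) were left out, leaving 18124370 to 24272569 gene counts per sample.

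Peaks of the 5 lists were merged at 1 bp of overlap in Python 3.11.15, and a region or promoter was present in a list when any peak overlapped it. Promoters were 1 kb on either side of the 5′ end of protein-coding gene records of GENCODE release M39 on GRCm39, the same assembly as mm39. This end need not be the most used start. Of 56923 gene IDs of the count files, 56236 matched (98.8%). Regions in all 5 lists were compared by the length-weighted mean of column 7, log2-transformed and centred on the list's median, with limma 3.58.1. RNA counts were tested with edgeR 4.0.16 (quasi-likelihood test, TMM, filterByExpr) in R 4.3.3, and DESeq2 1.42.0 was an alternative. P-values were adjusted by Benjamini-Hochberg over all regions or genes, with a threshold of 0.05. Both fits were tested on simulated data. Single values were compared with exact permutation tests, two-sided. H3K4me3 and H3K27ac calls are overlaps with the deposited peaks of those marks.

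Named promoters were, for each gene list, up to 4 per stage-exclusive direction and up to 3 shared by all lists, and over all coding genes 8 per direction, all ordered by covered bases within 5 kb. Named regions were the 8 per direction with the largest limma change that held a coding start, and named Polycomb genes up to 4 per direction of RNA change. The members and gene lists were chosen with earlier results of these data known. Fits on the autosomes alone and with quantile normalization were added after seeing the data. Inputs and other samples were not used here, and a few genes that these rules name are not reported here.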

Additional observations from a re-analysis of the deposited data

Results flagged for a closer look

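Of 170 sets of 4 RNA replicates of the named genes reported here, 21 held a replicate whose gap to the nearest other exceeded Dixon's 95% critical value (12.4%), where chance flags about 1 in 20. E17.5 replicate 1 was the sample in 20 of them. It was above the other 3 replicates with 563 CPM of Camk2b (others 252 to 269), 1949 CPM of Ina, 209 CPM of Pcdh1, 153 CPM of Hcn4, 44.5 CPM of Slc32a1, 102 CPM of 5730409E04Rik and 132 CPM of Dusp4. It was also above for the transcription factor genes Barhl2 (14.9 CPM, others 12.4 to 12.6), Gbx2 (52.1 CPM), Fezf1 (34.7 CPM), Foxb1 (22.9 CPM) and Nfix (225 CPM, others 81.7 to 86.1), and for Ephb4 (30.7 CPM), Car14 (5.69 CPM), Cbx2 (24.7 CPM), Epop (4.54 CPM) and Phc2 (109 CPM). It was below for Gad2 (62.9 CPM, others 156 to 165), Jag1 (13.5 CPM) and Ezh2 (34.3 CPM, others 57.5 to 61.4). The remaining set was Kl, with 1.27 CPM in E17.5 replicate 3 against 2.97 to 3.32 CPM. What sets E17.5 replicate 1 apart was not tested, and it entered the RNA fits.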

How the results depend on the processing

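Counts of stage-exclusive regions moved with list length and with single libraries. E11.5-only regions (975) were 1784 at equal numbers of peaks and 2289 at equal bases, E17.5-only regions (7557) were 1020 with column 9 of 5 or more, 2212, 343 and, with presence at 50% of the region, 4914, and shared regions (6508) were 2804 with column 9 of 5 or more, 3363 at equal bases and 2788 at 50% presence. E11.5-only promoters were 543 and 900 at equal peaks and bases, E17.5-only promoters 196 at equal bases, and shared promoters 2088 with column 9 of 5 or more. Among tested E11.5-only promoters RNA was higher in 339 of 404 (83.9%) under column 9 of 5. At equal peaks it was higher in 365 of 523 (69.8%) and at equal bases in 638 of 860 (74.2%), against 69.6% with all peaks. Among tested E17.5-only promoters RNA was lower in 102 of 165 (61.8%) at equal bases, against 47.4% with all peaks. The cause of the changed counts was not tested, beyond the fewer peaks these settings hold. The difference of median fold enrichment was −0.88 with column 9 of 5 or more, −0.49 on autosomes and 0.0908 at equal peaks. Without centring 1140 regions were higher by limma, and with column 9 of 5 or more 766 were higher and 1007 lower of 2804.

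Leaving out each replicate in turn gave 1033 to 2962 E11.5-only, 7739 to 10900 E17.5-only and 6634 to 7936 shared regions, and 356 to 584, 569 to 798 and 3255 to 3494 promoters. With 1 E11.5 list left, limma assumed that it varies like the others, and gave 1529 to 1791 higher and 2091 to 2509 lower. Covered bases gave ratios of 1.57 to 2.16, and median fold enrichment differences of −0.43 to −0.22. For RNA 4935 to 6968 genes were higher and 4152 to 7026 lower, the highest of each without E17.5 replicate 1, and DESeq2 gave 7085 and 5124 against 5393 and 4963. The RNA counts of the exclusive promoters were 210 to 230 and 159 to 213. The stage difference of humanized lists was −94.5 to −32.0 percentage points over E11.5-only and 51.3 to 69.3 over E17.5-only regions. Over shared regions it was −3.97 to 1.68, turning from −2.02 to 1.68 without E11.5 replicate 2.

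With the replicate number as a block, the replicate block fit gave 1622 regions higher and 2187 lower, and 4883 genes higher and 4583 lower in RNA. Same-numbered samples correlated in their deviations by 0.19 and 0.14 for the mark, over 2 pairs only, and by 0.03, −0.63, 0.47 and 0.10 for RNA, so the numbers were not taken as pairs. For the named genes, 685 values of covered bases stayed within 1 SD and 43 moved. All 137 fold enrichment values kept direction and call, but regions whose bounds changed under an alternative have no value there. Of the RNA values 1127 kept direction and call, 11 passed newly and 6 no longer passed.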
